A study of Hordeum vulgare with 6 samples.

Results

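The N-acetyltransferase genes of barley (*Hordeum vulgare*) were examined in young panicles, with *MND1* (HORVU.MOREX.r3.7HG0742750) as the member of interest. Members were the genes whose deposited description holds "N-acetyltransferase" or the word GNAT, with histone acetyltransferases left out. This gave 42 of the 40411 genes in the table. The letters of the rule also matched 2 heat shock genes through the word "cognate", and these were left out. Members were selected on their description, but the family was chosen by the measured TPM of *MND1*, known to be higher in these *msnsd* libraries, so the values of *MND1* are given as a description with no test.

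The 6 RNA-seq libraries came from immature spikes of 0.5 to 1 cm, at glume to lemma primordium stages, with 3 biological replicates of each genotype. The wild type was the barley variety E934. The mutant was *msnsd* (multiple stem nodes and spikes and dwarf), selected after treatment of E934 with EMS and radioactive cobalt. It is 1 mutant line, so the effect of its causal gene and of other induced changes cannot be told apart. Levels are in TPM, reads scaled by transcript length and by library total. Genes can therefore be ordered by level, but the depth of the libraries is unknown.

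Enzymes of the GNAT (GCN5-related N-acetyltransferase) superfamily move an acetyl group from acetyl-CoA to an amino group. Their substrates include proteins, amino sugars and small amines, and many plant members have no known substrate. *MND1* encodes an N-acetyltransferase-like protein, and barley plants that lack its function are dwarfs with many nodes and a short plastochron, the interval between successive leaves.

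Libraries of a genotype were only slightly more alike than libraries of different genotypes. Pearson correlations across the 23078 genes with a mean of at least 1 TPM ran from 0.951 to 0.968 within and from 0.947 to 0.958 between genotypes, and genes are not independent replicates. In a principal component analysis, genotypes parted on component 1 (28.7% of variance), with E934 at 0.26 to 0.50 and *msnsd* at -0.52 to -0.24. Component 2 (23.6%) spread the E934 libraries, with replicate 1 at 0.72, replicate 2 at -0.28 and replicate 3 at -0.56, and left *msnsd* between -0.16 and 0.22. Of gene families that mark an inflorescence, 33 of 59 MADS-box, 5 of 7 YABBY and 7 of 10 knotted genes had a mean of at least 1 TPM. So did 23078 of all 40411 genes, so these counts alone do not identify the tissue. Several marker sums separated the genotypes in the same way as *MND1* or in the opposite way, and others overlapped. The 4 genes described as Terminal flower 1 summed to 22.7 to 37.3 TPM in the E934 libraries and 75.4 to 108 TPM in the *msnsd* libraries. The 13 squamosa promoter-binding genes summed to 571 to 672 and 711 to 754 TPM, and the 59 MADS-box genes to 1301 to 1440 and 1201 to 1232 TPM. The 7 YABBY genes overlapped at 222 to 277 and 243 to 286 TPM, and the 10 knotted genes at 228 to 240 and 227 to 247 TPM. The sums of cyclin, histone and ribulose bisphosphate carboxylase small subunit genes overlapped too. The 29 chlorophyll a-b binding protein genes, which mark green tissue, overlapped at 357 to 406 and 307 to 549 TPM. The part of the makeup of the tissue in the differences between genotypes was not tested, and in bulk samples fewer cells of a type and less RNA per cell cannot be told apart.

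The family name fitted part of the members. A GNAT domain, from a chosen list of Pfam database entries, was annotated in 23 of the 42, *MND1* among them: 19 had PF00583 and 4 had PF13302. By the InterPro entries IPR000182 or IPR016181 the number was 24, with HORVU.MOREX.r3.2HG0178750, described as ESCO2, in addition. The 5 genes described as 2,3,4,5-tetrahydropyridine-2,6-dicarboxylate N-acetyltransferase had no GNAT domain, and 3 of them had a different repeat, PF00132. The 6 genes described by heparan-alpha-glucosaminide had none either. Of the gene models, 32 were of high and 10 of low confidence. In the RefSeq annotation of the same assembly, 31 of the high-confidence and 5 of the low-confidence models overlapped a gene.

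The members lay on all 7 chromosomes, with 11 on 4H and between 4 and 7 on each of the others. *MND1* lies on chromosome 7H from 610167544 to 610169619 in the Morex V3 assembly and overlaps the RefSeq protein-coding gene LOC123408942. Its nearest member, HORVU.MOREX.r3.7HG0741480, was 74 listed genes away. Only the pair HORVU.MOREX.r3.5HG0518130 and HORVU.MOREX.r3.5HG0518140 on 5H was adjacent.

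*MND1* was low in E934 and several times higher in *msnsd*. Its level was 1.35, 3.30 and 1.86 TPM in E934 replicates 1, 2 and 3, and 8.96, 12.14 and 8.38 TPM in *msnsd* replicates 1, 2 and 3. The genotypes did not overlap, and the lowest *msnsd* library was 2.54 times the highest E934 library. The means were 2.17 ± 1.01 and 9.83 ± 2.02 TPM (SD, n = 3), which is 4.53-fold. On the log2(TPM + 0.1) scale the difference was 2.20 with a standard error of 0.33. Among the 42 members, *MND1* ranked 33, 28 and 30 by level in the E934 libraries and 21, 20 and 21 in the *msnsd* libraries. It thus moved from the lower part of the family to its middle.

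**Figure D1:**
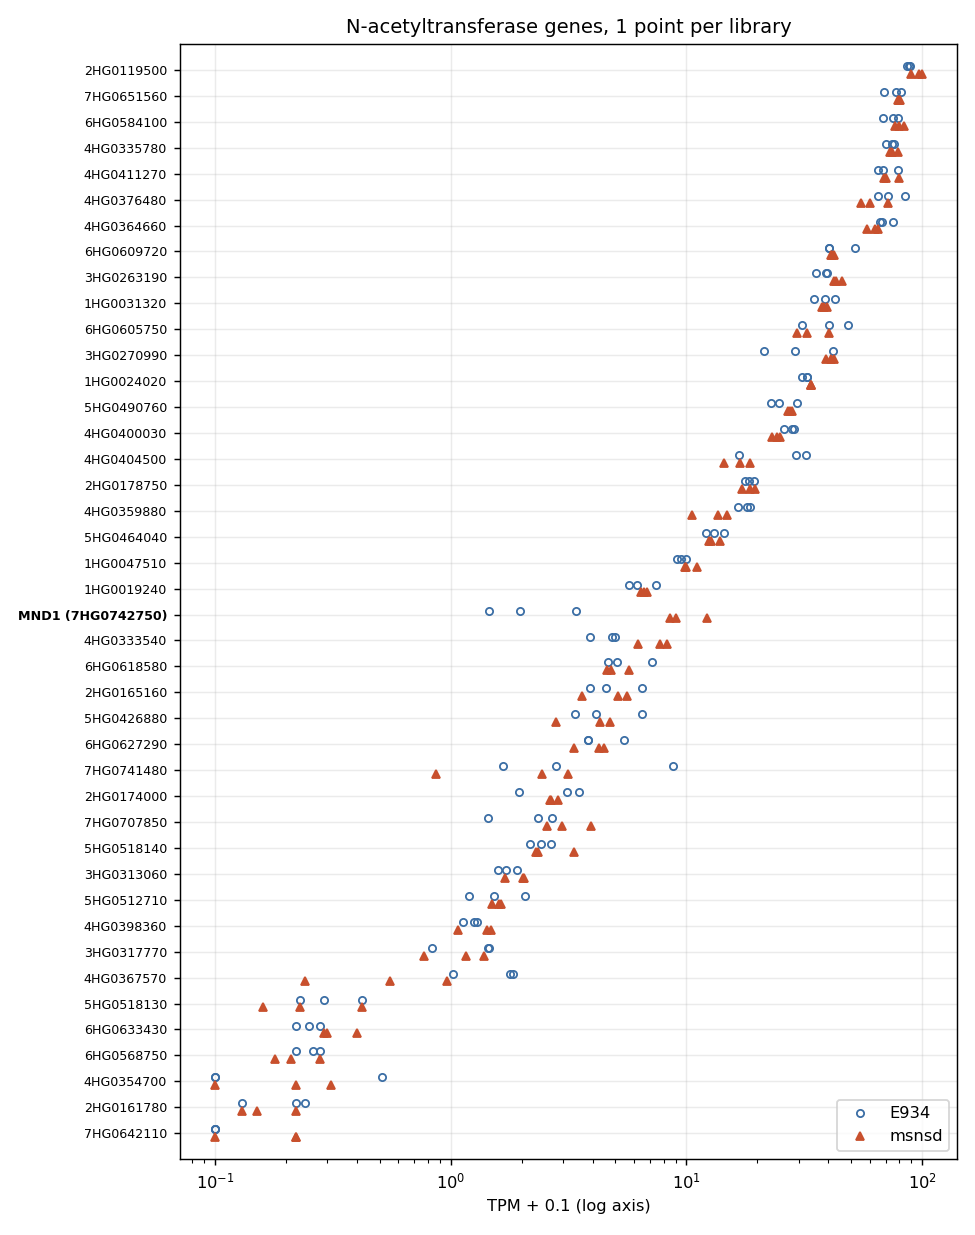
TPM of each of the 42 N-acetyltransferase genes in each library (x axis, TPM + 0.1, log axis), 1 row per gene ordered by mean level and named without the prefix HORVU.MOREX.r3., with E934 as open circles and *msnsd* as filled triangles. The points of *MND1* lie apart, from 1.35 to 3.30 TPM in E934 and from 8.38 to 12.14 TPM in *msnsd*, while in most other rows the genotypes lie together.

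Levels of the other members spanned a wide range. Of all 42, 35 had a mean of at least 1 TPM over the 6 libraries and 19 had at least 10 TPM. HORVU.MOREX.r3.2HG0119500 of the dicarboxylate group was the most abundant, at 86.54, 87.96 and 88.41 TPM (E934) against 99.88, 89.80 and 97.32 TPM (*msnsd*). It lay above every library of the next members, HORVU.MOREX.r3.7HG0651560 (68.78 to 81.44 TPM over all 6 libraries) and HORVU.MOREX.r3.6HG0584100 (68.18 to 83.29 TPM), which overlapped each other. The enzyme these 3 are named after is known from bacteria, where it acts in lysine synthesis.

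Next in order were genes with no substrate named and an alpha-tubulin gene, whose levels overlapped. HORVU.MOREX.r3.4HG0335780 had means of 73.5 ± 3.02 and 75.5 ± 3.13 TPM in E934 and *msnsd* (SD, n = 3), and HORVU.MOREX.r3.4HG0411270 had means of 70.6 ± 7.20 and 72.8 ± 5.91 TPM. The low-confidence HORVU.MOREX.r3.4HG0364660 had means of 69.5 ± 4.97 and 62.0 ± 3.65 TPM. At the other end, 2 members missed the filter of a mean of 0.1 TPM and were not tested. HORVU.MOREX.r3.7HG0642110, described by the bacterial protein Eis, was listed at 0 in all E934 libraries and in *msnsd* replicate 3, and at 0.12 TPM in *msnsd* replicates 1 and 2. HORVU.MOREX.r3.2HG0161780 of the dicarboxylate group ranged from 0.03 to 0.14 TPM.

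Genotypes were compared with limma on log2(TPM + 0.1) over the 32968 genes with a mean of at least 0.1 TPM, with Benjamini-Hochberg adjustment over all of them. The threshold was the one in the study's methods, a log2 fold change of 1.5 or more in size with adjusted p no higher than 0.05. Of the 39 tested members other than *MND1*, 0 were past it in either direction, beside 0.0212% of all genes as higher and 0.0273% as lower in *msnsd*. No call is given for *MND1*, and the counts below leave it out unless they say so. At an unadjusted p under 0.05 in limma, 2 of the 39 were higher (5.58% of all genes) and 3 were lower (5.09%), 5 in either direction (10.7%). These shares of 5.13% and 7.69% of the members were near those of all genes. The smallest adjusted p among the 39 was 0.232. An exact permutation test of 3 libraries against 3 cannot go below 0.1.

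By size, *MND1* was the only member with a log2 fold change of at least 1.5, which 1.56% of all genes tested and 0.659% of those with a mean of at least 1 TPM reached. Its own value was reached by 0.309% and 0.156% of these genes. As the family was chosen by the rise of *MND1*, these shares are a description and no test. The next highest members were HORVU.MOREX.r3.4HG0333540 at 0.70, HORVU.MOREX.r3.7HG0707850 at 0.57 and HORVU.MOREX.r3.3HG0270990 at 0.46. Their order was not stable. In the same sequence they were at 0.59, 0.30 and 0.71 without E934 replicate 1, and at 0.746, 0.752 and 0.448 without E934 replicate 3. With a pseudocount of 1 they were at 0.607, 0.411 and 0.452. In the other direction 1 member was at or below -1.5, beside 2.04% of all genes and 0.758% of those with a mean of at least 1 TPM.

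Most other members were close to even. Between -0.5 and 0.5 on the log2 scale lay 34 of the 39 (75.5% of all genes). A mean of at least 1 TPM was reached by 34 of the 39 and by 23078 of the 32968 genes tested. The part of level in the difference between these shares was not tested. Of the 39, 19 were above 0 (47.6% of all genes, and 47.4% of those with a mean of at least 1 TPM), and their median was -0.01, beside -0.02 over all genes. The 95% interval lay wholly between -1 and 1, less than a doubling or halving, in 29 of the 39 (55.8% of all genes, and 78.2% of those with a mean of at least 1 TPM). In the remaining members the interval reached past -1 or 1, so a missed threshold does not show equal levels there.

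**Figure D2:**
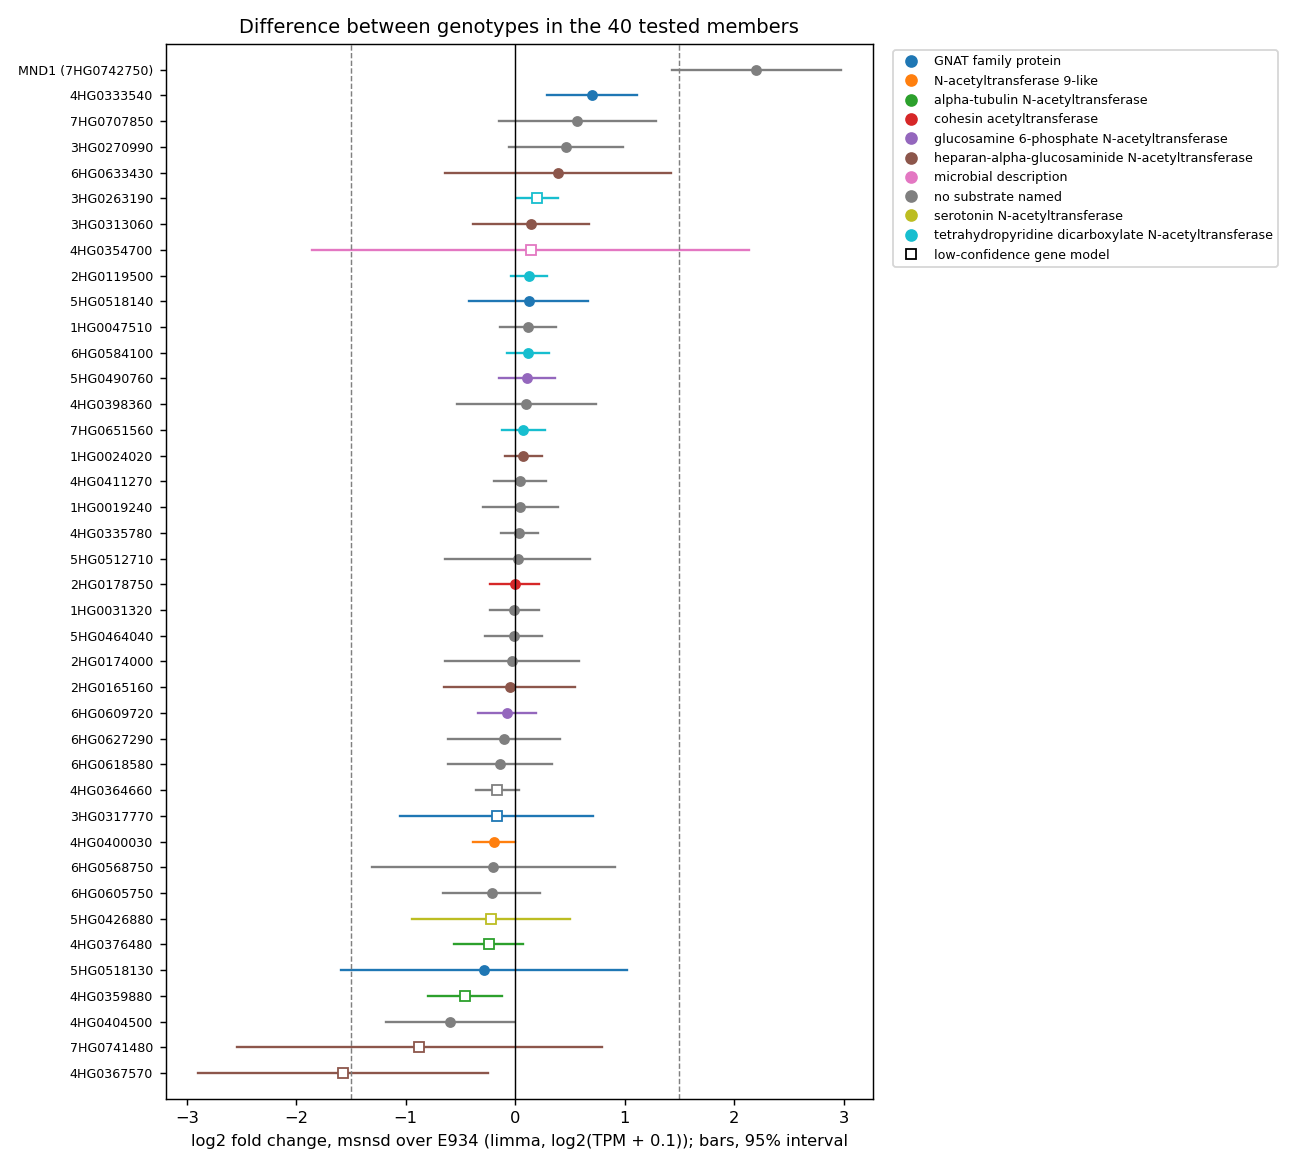
Log2 fold change of *msnsd* over E934 (x axis, limma on log2(TPM + 0.1)) with its 95% interval for the 40 tested members, coloured by described substrate, with low-confidence gene models as open squares and dashed lines at -1.5 and 1.5. *MND1* is at 2.20, the next member at 0.70 and the lowest at -1.58. The family was chosen by the rise of *MND1*, so its interval is a description of spread and no test.

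**Figure D3:**
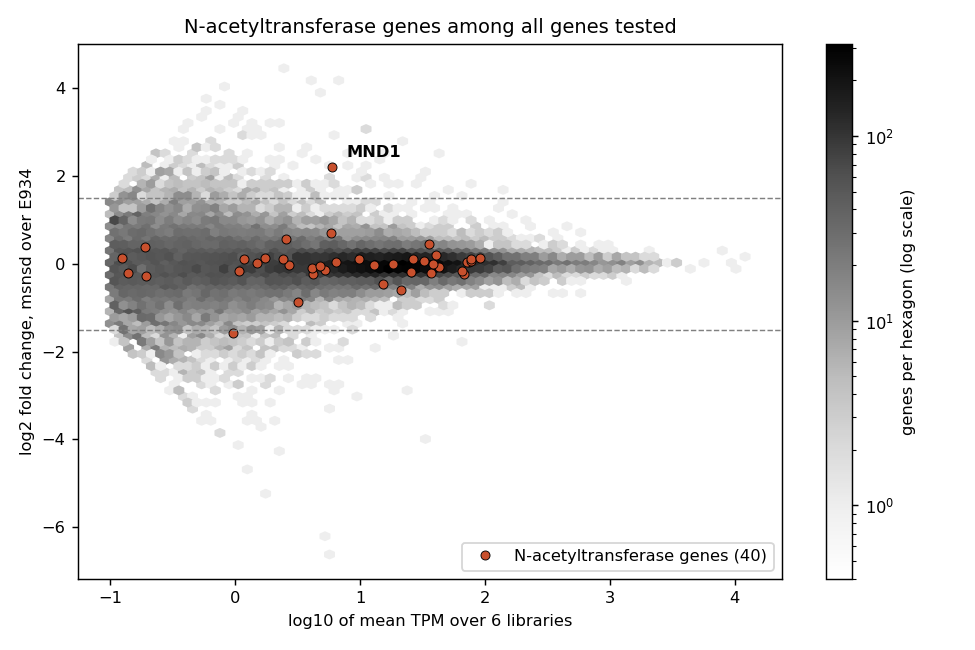
Log2 fold change of *msnsd* over E934 (y axis) against the log10 of the mean TPM over 6 libraries (x axis) for all 32968 genes tested (grey hexagons, darker with more genes) and the 40 tested members (orange points), with dashed lines at -1.5 and 1.5. *MND1* is 1 of 102 genes with a log2 fold change of at least 2.20, and most other members lie in the dense band around 0.

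Genes with no substrate named made up 18 of the members. Apart from *MND1* they ran from -0.60 to 0.57 on the log2 scale. The highest of them was HORVU.MOREX.r3.7HG0707850 (chromosome 7H, 445282168 to 445282767), at 1.34, 2.25 and 2.60 TPM (E934) against 3.82, 2.86 and 2.46 TPM (*msnsd*). The genotypes overlapped, and the log2 difference, 0.57 with standard error 0.30, had an adjusted p of 0.534 in limma and was 0.30 without E934 replicate 1. HORVU.MOREX.r3.3HG0270990 (chromosome 3H, 359768114 to 359772121) read 41.66, 21.31 and 28.77 TPM (E934) against 42.08, 39.10 and 40.95 TPM (*msnsd*). Its E934 replicate 1 lay among the *msnsd* libraries and the other E934 libraries lay below them. The log2 difference was 0.46 (adjusted p = 0.505 in limma), 0.71 without E934 replicate 1 (adjusted p = 0.106) and 0.23 without E934 replicate 2.

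HORVU.MOREX.r3.4HG0404500 (chromosome 4H, 567583608 to 567587114) was the lowest of the 18. It read 16.67, 31.96 and 29.18 TPM (E934) against 14.31, 18.49 and 16.86 TPM (*msnsd*). Here too E934 replicate 1 lay among the *msnsd* libraries, with the other E934 libraries above them. The log2 difference was -0.60 with standard error 0.25 (adjusted p = 0.457 in limma). It was -0.89 without E934 replicate 1 (adjusted p = 0.0772 in limma) and -0.42 without E934 replicate 2 (adjusted p = 0.691 in limma).

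The word GNAT was in the descriptions of 4 members. HORVU.MOREX.r3.4HG0333540 (chromosome 4H, 5878606 to 5879339) had the highest log2 fold change after *MND1*. It read 3.79, 4.86 and 4.71 TPM (E934) against 6.16, 8.21 and 7.59 TPM (*msnsd*). All *msnsd* libraries were above all E934 libraries, and the means of 4.45 ± 0.579 and 7.32 ± 1.05 TPM (SD, n = 3) differed 1.64-fold. The log2 difference was 0.70 with standard error 0.17 and a 95% interval of 0.29 to 1.11 (adjusted p = 0.232 in limma). The adjacent pair on 5H overlapped between genotypes, with 2.06 to 3.22 TPM for HORVU.MOREX.r3.5HG0518140 and 0.06 to 0.32 TPM for HORVU.MOREX.r3.5HG0518130 over the 6 libraries.

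**Figure D4:**
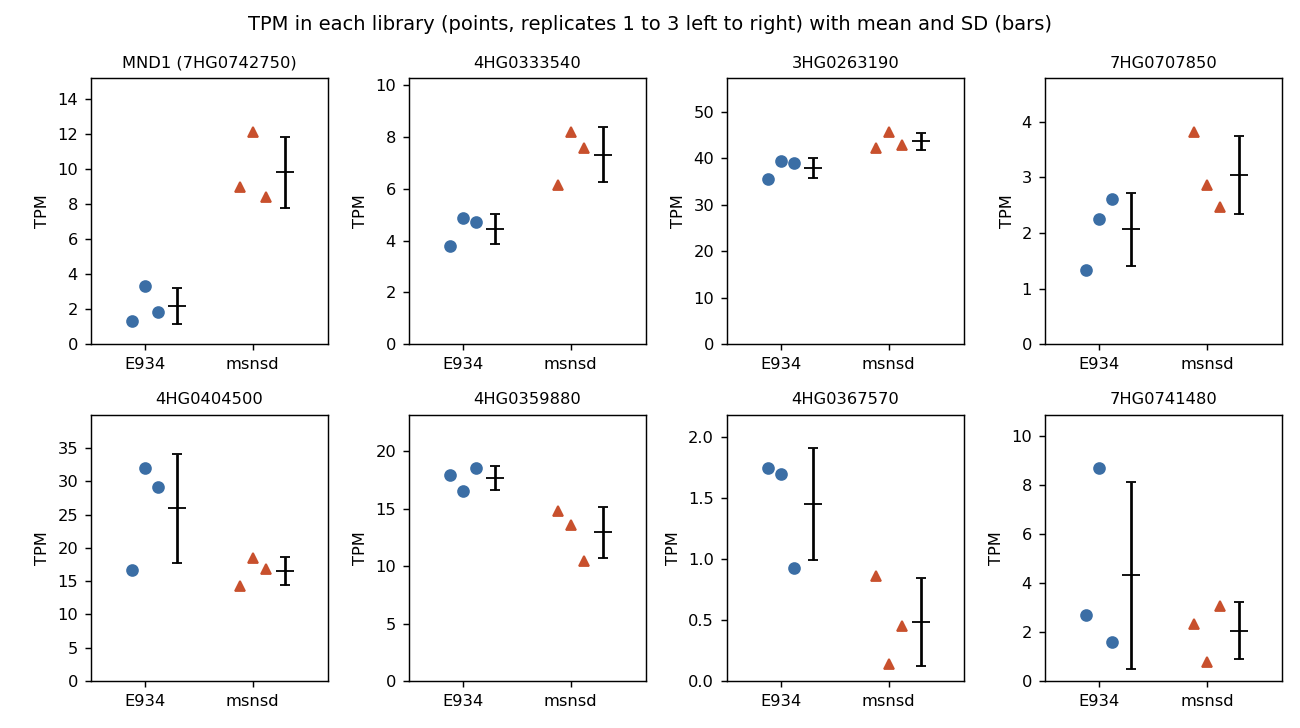
TPM (y axis, from 0) of *MND1* and 7 other members in each library, with E934 replicates 1 to 3 as circles, *msnsd* replicates 1 to 3 as triangles, and the mean with its SD (n = 3) as the bar beside them. The genotypes lie apart in *MND1*, 4HG0333540, 3HG0263190, 4HG0359880 and 4HG0367570, and overlap in 7HG0707850, 4HG0404500 and 7HG0741480.

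Of the dicarboxylate group, 4 members were tested, with log2 differences of 0.08 to 0.20. HORVU.MOREX.r3.3HG0263190 (chromosome 3H, 274015765 to 274072028), a low-confidence model over a RefSeq pseudogene, read 35.48, 39.36 and 39.09 TPM (E934) against 42.35, 45.79 and 42.85 TPM (*msnsd*). The genotypes did not overlap, and the log2 difference of 0.20, with standard error 0.08, had an adjusted p of 0.438 in limma. The 5 genes summed to 259, 280 and 288 TPM (E934) against 302, 292 and 304 TPM (*msnsd*), also without overlap. Whether reads of near-identical copies were split between them was not tested.

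The heparan-alpha-glucosaminide genes are named after an enzyme that, in human lysosomes, acetylates the end of heparan sulfate chains. Their most abundant member, HORVU.MOREX.r3.1HG0024020, read 32.51, 32.39 and 30.73 TPM (E934) against 33.62, 33.53 and 33.54 TPM (*msnsd*), apart but by little. The low-confidence HORVU.MOREX.r3.4HG0367570 (chromosome 4H, 261167886 to 261169326) had the lowest value of all members. It read 1.74, 1.69 and 0.92 TPM (E934) against 0.86, 0.14 and 0.45 TPM (*msnsd*). The genotypes were separated only by 0.92 against 0.86 TPM, and the authors' mean normalized count over all libraries was 7.89. The log2 difference was -1.58 with standard error 0.56 (adjusted p = 0.393 in limma), -0.73 with a pseudocount of 1 and -1.04 without *msnsd* replicate 2. HORVU.MOREX.r3.7HG0741480 (chromosome 7H, 607944947 to 607945285), also of low confidence, read 2.69, 8.68 and 1.57 TPM (E934) against 2.33, 0.77 and 3.04 TPM (*msnsd*). Its E934 replicate 2 was far above the rest, and the log2 difference of -0.87, with standard error 0.71 (adjusted p = 0.691 in limma), was -0.20 without that library, -0.32 without *msnsd* replicate 2 and -1.40 without E934 replicate 3.

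Alpha-tubulin N-acetyltransferase, which in animals acetylates a lysine of the microtubule protein alpha-tubulin, was the description of 2 low-confidence genes on 4H. HORVU.MOREX.r3.4HG0359880 (174827758 to 174828580) read 17.96, 16.52 and 18.53 TPM (E934) against 14.80, 13.55 and 10.49 TPM (*msnsd*). All *msnsd* libraries were below all E934 libraries, and the log2 difference was -0.46 with standard error 0.14 (adjusted p = 0.343 in limma). HORVU.MOREX.r3.4HG0376480 (371059524 to 371064143), over a RefSeq long non-coding RNA, read 71.49, 84.33 and 64.82 TPM (E934) against 71.72, 59.81 and 55.20 TPM (*msnsd*). Its genotypes overlapped (adjusted p = 0.544 in limma).

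The remaining members with a described substrate differed little in mean level. The glucosamine 6-phosphate N-acetyltransferases act in the synthesis of the sugar donor UDP-N-acetylglucosamine. HORVU.MOREX.r3.5HG0490760 read 29.27, 22.65 and 24.71 TPM (E934) against 26.99, 27.86 and 27.46 TPM (*msnsd*), and HORVU.MOREX.r3.6HG0609720 read 40.32, 40.20 and 51.73 TPM against 42.12, 41.05 and 41.56 TPM. Both overlapped. HORVU.MOREX.r3.2HG0178750 is described as ESCO2, which in animals acetylates cohesin to hold sister chromatids together, and read 17.57, 18.32 and 19.34 TPM (E934) against 19.38, 17.06 and 18.59 TPM (*msnsd*). The N-acetyltransferase 9-like HORVU.MOREX.r3.4HG0400030 read 27.97, 25.87 and 28.60 TPM (E934) against 24.73, 24.24 and 23.01 TPM (*msnsd*). It was lower in *msnsd* without overlap (adjusted p = 0.468 in limma). The low-confidence HORVU.MOREX.r3.5HG0426880, named for serotonin N-acetyltransferase of melatonin synthesis, overlapped between genotypes at 2.70 to 6.35 TPM.

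Counting separation of the libraries alone, 5 of the 39 lay wholly higher and 4 wholly lower in *msnsd*, where 8.73% and 7.86% of all genes did. The higher ones were HORVU.MOREX.r3.4HG0333540, HORVU.MOREX.r3.3HG0263190, HORVU.MOREX.r3.2HG0119500, HORVU.MOREX.r3.1HG0024020 and HORVU.MOREX.r3.6HG0633430, the last at only 0.12 to 0.30 TPM. The lower ones were HORVU.MOREX.r3.4HG0359880, HORVU.MOREX.r3.4HG0364660, HORVU.MOREX.r3.4HG0367570 and HORVU.MOREX.r3.4HG0400030. With median-of-ratios scaling of the TPM, 2 members lay wholly lower (8.37% of all genes).

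The family as a whole held a similar share of the transcripts in both genotypes. The 42 genes summed to 928, 942 and 939 TPM (E934) against 967, 928 and 927 TPM (*msnsd*), with overlap. Without *MND1* the sums ranged from 927 to 939 TPM in E934 and from 916 to 958 TPM in *msnsd*. *MND1* made up 0.145%, 0.350% and 0.198% of the summed TPM in the E934 libraries and 0.927%, 1.31% and 0.904% in the *msnsd* libraries.

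**Figure D5:**
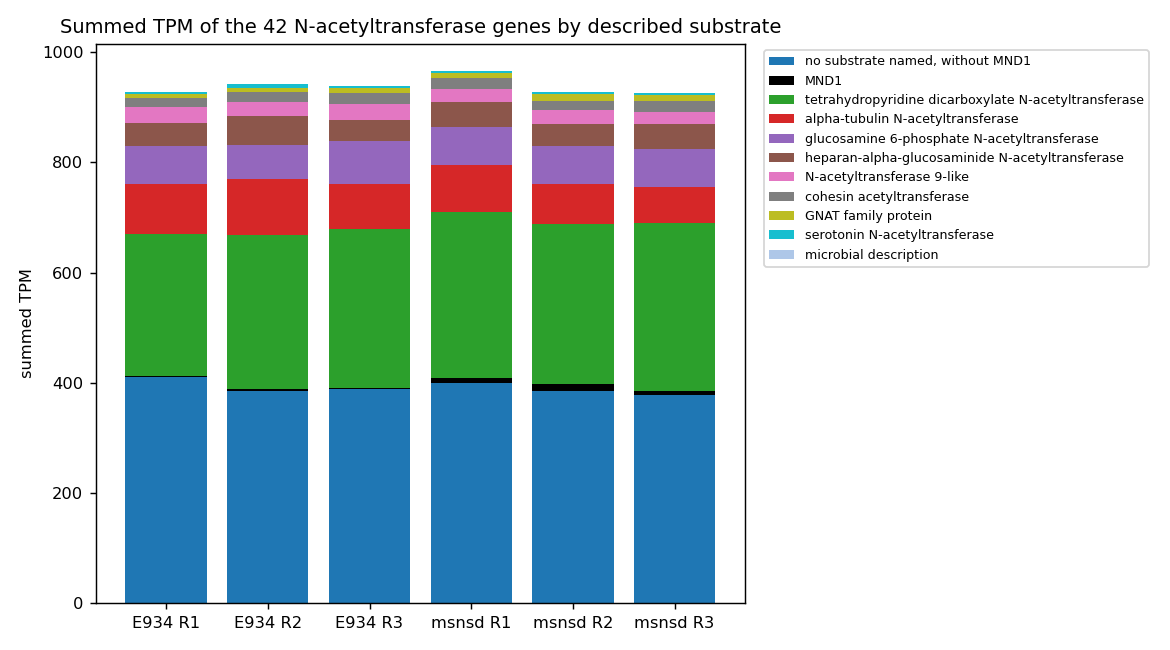
Summed TPM of the 42 members in each library (y axis, bars from 0), divided by described substrate, with *MND1* as the black segment. All 6 bars end between 927 and 967 TPM, and the black segment is thicker in the *msnsd* libraries.

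Genes with a related name or domain gave no member past the threshold in limma. Of 9 genes with a GNAT Pfam domain but another description, 8 were tested and ran from -0.21 to 0.03 on the log2 scale. The 4 N-alpha-acetyltransferase genes, whose products acetylate the first residue of proteins, ran from -0.14 to 0.03. The 17 tested histone acetyltransferases ran from -1.27 to 0.36, the 24 tested histone deacetylases from -1.34 to 1.20 and the 33 tested other acetyltransferases from -1.05 to 1.60. Of the last, 2 (6.06%) were at or above 1.5, beside 1.56% of all genes. At an unadjusted p under 0.05 in limma (10.7% of all genes) there was 1 histone acetyltransferase and 1 other acetyltransferase, both lower in *msnsd*, and 0 in the remaining lists.

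The surroundings of *MND1* on 7H were compared as well. Of the 10 listed genes on each side, 17 were tested and ran from -0.32 to 1.05 on the log2 scale. Of these 1 had an unadjusted p under 0.05 in limma (10.7% of all genes), the protein kinase gene HORVU.MOREX.r3.7HG0742860, which read 0.43, 1.21 and 0.98 TPM (E934) against 1.48, 1.77 and 2.14 TPM (*msnsd*) (adjusted p = 0.421 in limma).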

How the data were processed

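RNA-seq libraries of E934 and *msnsd* (3 each) were grouped by their titles. The authors aligned reads to Morex V3, ran Salmon 1.9.0 and deposited TPM per gene and library. fastp is named in the submitters' processing notes. A mean normalized count over all libraries, a score deposited with the authors' DESeq2 comparison, was used for 1 gene. That comparison's fold changes and p-values were not used. There were 0 TPM columns left out. TPM keep no depth, so precision rests on the spread between replicates.

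Log2(TPM + 0.1) was fitted in R 4.3.3 with limma 3.58.1 (lmFit, then eBayes with trend), two-sided, with no term besides genotype, for genes whose mean TPM reached 0.1. Fold changes on this scale understate those of low genes. Gene lists were counted with pandas 2.3.3 and RefSeq overlaps ignored strand. In TPM simulated for this comparison, 151 of 200 genes with a log2 change of 2 passed the threshold (75.5%, 32045 genes). With a change of 1, 1 of 200 passed (32056 genes). That change is below the fold change the threshold requires, so this count does not measure detection. Of these 200, 175 had an unadjusted p under 0.05 in limma (87.5%). Each simulation changed 200 genes at once, while 7 higher and 9 lower genes passed in the real data. Detection with fewer changed genes was not tested.

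The members and lists were chosen with earlier results of these data known. Named were *MND1*, members past the threshold, members with an unadjusted p under 0.05, members of at least 1.5 in log2 size without overlap, the 8 most abundant, the 3 highest and 3 lowest log2 fold changes, and adjacent members. All other named genes were named after their values were seen. Alternatives were pseudocounts of 1 and 0.01, a filter at 1 TPM or none, median-of-ratios and quantile scaling, no trend, a replicate block, each library left out, and other member lists. Protein and promoter sequences were not used here.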

Additional observations from a re-analysis of the deposited data

How the results depend on the processing

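Counts here leave out *MND1*. In all 14 other fits and for 3 other member lists, 0 members passed the threshold. This says little where few genes passed at all: over all genes 7 were higher and 9 lower past the threshold in limma, 17 and 13 without the trend, 15 and 10 with a filter at 1 TPM, 0 and 0 with the replicate block, and 0 to 11 in each direction when a library was left out. The log2 fold change of *MND1* ran from 1.80 with a pseudocount of 1 to 2.54 without E934 replicate 2, and from 1.92 to 2.54 over the fits that left out a library. Same-numbered libraries shared little deviation, with correlations across genes of 0.0187, -0.160 and 0.0727. The labels do not say whether they were collected together. With the replicate block, 3 members were higher (5.47% of all genes) and 3 lower (5.23%) at an unadjusted p under 0.05 in limma. Without it 2 were higher (5.58%) and 3 lower (5.09%). The log2 fold change of *MND1* was 2.20 with the block. The number higher was 1 without the trend (5.34% of all genes), and 1 without the dicarboxylate and heparan groups (5.58%). It was 1 higher and 1 lower among genes with a GNAT Pfam domain, and 1 and 1 among high-confidence members, where fewer genes were tested. Leaving out a library gave 1 to 3 higher, with 1 without E934 replicate 3 and without each *msnsd* replicate, and 1 to 3 lower, with 1 without *msnsd* replicate 2. The share of all genes moved as well, from 3.73% to 7.72% higher and from 3.11% to 7.83% lower over these fits. Members without overlap, an alternative chosen after seeing the data, were 5 higher and 4 lower, and 2 lower with median-of-ratios scaling (8.37% of all genes). Leaving out a library gave 5 to 9 higher, with 9 without E934 replicate 1 (16.2% of all genes), 9 without E934 replicate 3 (11.5%) and 8 without *msnsd* replicate 3 (12.6%). It gave 4 to 6 lower, where 10.2% to 17.2% of all genes were. HORVU.MOREX.r3.4HG0367570 could not be tested with a filter at 1 TPM.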

Other observations

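Chromosome 4H held 11 of the 40 tested members and all 4 that lay wholly lower in *msnsd*, a pattern noticed after the values were seen. Of the 4027 tested genes of 4H, 8.02% lay wholly lower and 9.61% wholly higher, and 1 of the 11 members lay wholly higher. On the log2 scale 6 of the 11 were below 0, beside 50.0% of the tested genes of 4H. The median was -0.16 over the 11 and 0.0006 over the tested genes of 4H. HORVU.MOREX.r3.4HG0359880, HORVU.MOREX.r3.4HG0364660 and HORVU.MOREX.r3.4HG0367570 of the 4 are low-confidence models. Low-confidence models had a median of -0.14 over the 12595 tested in the whole table and -0.22 over the 9 among the members, against 0.01 over the 20373 high-confidence models and 0.05 over the 31 among the members, *MND1* counted. The part of annotation confidence in the pattern on 4H was not tested.

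Members with a mean of at least 1 TPM, *MND1* counted, had a median coefficient of variation between replicates of 13.0% in E934 and 6.43% in *msnsd*. For the 5 tested members below 1 TPM it was 31.7% in E934 and 74.7% in *msnsd*, the other way round. Of these 5, HORVU.MOREX.r3.4HG0354700 had 173% in E934 and 95.8% in *msnsd*. Neither difference between the medians was tested.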
